A study of Mus musculus with 12 samples.

Results

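Of 4286 ChIRP-seq peaks of the microRNA Mirlet7d in mouse MLE-12 cells, 819 (19.1%) lay inside an intron, on no annotated repeat, and over 10000 bases from the nearest transcription start site (TSS). These far intronic peaks were chosen from the deposited annotation alone: its class had to be intron, its detailed class had to name no repeat element, and its absolute distance to the TSS had to exceed the limit. Neither the peak score nor the peak width entered the choice. The intron and repeat labels are those of the rule itself. Of the 819 peaks, 3 (0.366%) were annotated on a CpG island, a GC-rich stretch typical of promoters: 2 in Tex14 and 1 in Btd. Another 602 intronic peaks off repeats lay within 10 kb of a TSS, and 405 intronic peaks lay on repeats. A further 801 intergenic peaks off repeats also lay over 10 kb from a TSS. Their median distance was 41615 bases, against 30889 for the far intronic peaks.

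MLE-12 is a mouse line of lung epithelial origin. In chromatin isolation by RNA purification (ChIRP-seq), biotinylated oligonucleotides that pair with an RNA pull down the chromatin it sits on, and the DNA is sequenced. Chromatin was incubated with 150 pmol of tiling probes for mature Mirlet7d, and the labels mark this library as a Mirlet7d gain of function without a dose or time. In a separate pull-down, cells were transfected with 25 nM of biotinylated Mirlet7d, harvested after 48 h, and streptavidin-bound RNA was sequenced beside an input RNA library. The series has 12 libraries with no group holding more than 1, so replicate error is unknown throughout, and neither assay has a control capture in the data analysed here.

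Mirlet7d is a member of the let-7 family, whose mature microRNAs are best known for guiding Argonaute proteins to messenger RNAs in the cytoplasm, with target choice set largely by the seed near the 5′ end. MicroRNAs also occur in the nucleus, where RNA in chromatin can be nascent transcript, and an intron is present in the nucleus mainly as part of unspliced RNA. Introns far from a start site can hold enhancers, alternative promoters and genes of their own, so a peak there need not concern the gene around it.

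The probe sequences are not given in the sources used here, and the bases under the peaks were not read because no genome of their build, mm9, was used. The RNA that the probes address is shown instead, as its 5p and 3p mature forms from RefSeq (GRCm38.p6), with the seed (bases 2 to 8 from the 5′ end) in capitals.
mmu-let-7d-5p: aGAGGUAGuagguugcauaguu
mmu-let-7d-3p: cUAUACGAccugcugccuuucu
The 5p seed is shared by 13 mature mouse microRNAs in the RefSeq table, while the 3p seed is found in 1. The labels say mature Mirlet7d and do not name the arm.

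The 5p seed as DNA, GAGGTAG or its reverse complement CTACCTC on either strand, was looked for in the RefSeq promoters (250 bases before to 50 after a start) of the genes that hold far intronic peaks. At least 1 promoter held it in 24 of 496 such genes with a promoter sequence (4.84%, exact 95% interval 3.12 to 7.11%), against 1201 of all 27025 genes (4.44%). The promoters thus held the letters about as often as those of all genes, although the peak genes had more promoters each (1.42 against 1.22). The matches at the 4 genes among them with the highest peak scores are shown on the promoter strand, with the match in capitals and up to 11 bases on each side.
Nckap5: aagggagctagCTACCTCtcacgctaccc
Septin9: cctgagccctcCTACCTCtctgccccaca
Tlk2: cacggccggcaCTACCTCccccccacccc
Palld: cagatccttttCTACCTCtctctctcttc
These 4 genes hold far intronic peaks of up to 62.13 (Nckap5), 61.36 (Septin9), 53.72 (Tlk2) and 49.51 (Palld). A match of 7 letters in a promoter is a description of sequence and not a site, and no match says only that these letters are not in this window.

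Peaks carry the authors' deposited MACS score, used here only to describe and rank peaks within the list. Its scale is not given in the sources used here and its lowest value was 30.01, so the list is a selection. The read depth behind the peaks is unknown. Lung epithelial identity could not be checked from these tables: of 12 epithelial marker genes 0 were in the pull-down mRNA list, of 4 fibroblast markers 1 (Col1a2), of 4 endothelial markers 2 (Kdr and Tek) and of 4 immune markers 1 (Mrc1). That list holds enriched transcripts and not expression levels.

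The far intronic peaks were mostly of low score, with a median of 33.9 (95% interval of the median 33.65 to 34.27) and quartiles of 31.66 and 38.9. Over all peaks the median was 34.3, and over intronic peaks near a TSS 34.5. A score of at least 40 was reached by 175 of the 819 (21.4%, exact interval 18.6 to 24.3%), against 24.8% of all peaks and 25.2% of near-TSS intronic peaks. Intervals here treat peaks as independent draws from 1 library and cover counting error only. The median width was 643 bases (627 to 656), within a range of 330 to 3189, and over all peaks it was 646.

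**Figure D1:**
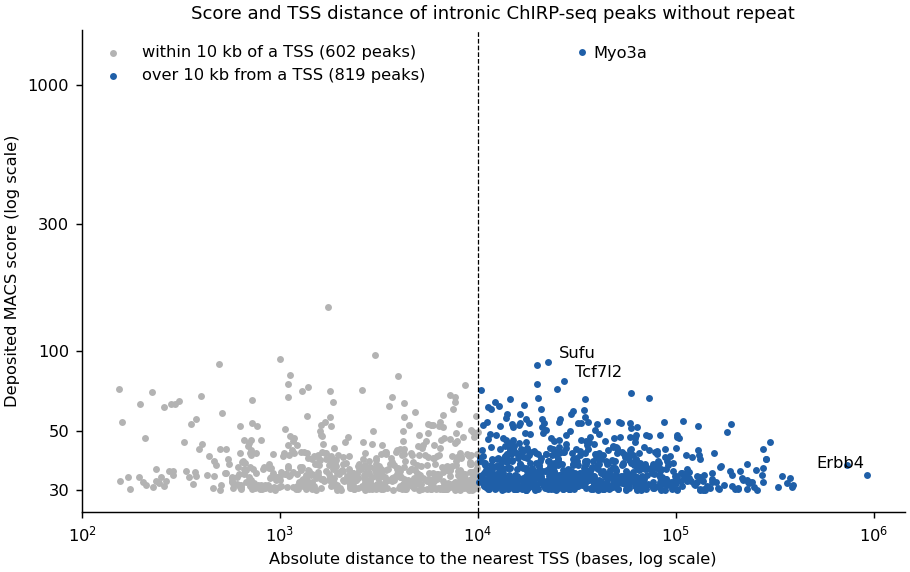
Deposited MACS score (log scale) against the absolute distance to the nearest TSS in bases (log scale), one point per intronic peak off repeats. Blue points are the 819 peaks over 10 kb from a TSS, grey points the 602 nearer ones, and the dashed line marks the 10 kb limit. The Myo3a peak at 1325.82 stands far above the others, and the rest of the blue points fill the same range of scores at most distances.

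Distance from the TSS went with little change in score. The median was 34.01 for the 250 peaks at 10 to 20 kb, 34.04 for the 326 at 20 to 50 kb and 34.03 for the 158 at 50 to 100 kb. The 85 peaks beyond 100 kb had a median of 33.19 (32.16 to 34.14), and 15.3% of them (8.4 to 24.7%) scored at least 40. Intervals of all 4 distance ranges overlapped. The median distance was 30889 bases, and 243 peaks (29.7%) lay over 50 kb from any TSS. At the limit itself, the peaks just inside were those in Trim25 (10145 bases, score 32.17), Car5a (10273, 33.89) and Nsmaf (10286, 38.7), and those just outside in Cacnb1 (9950, on the upstream side, 49.7), Tmem92 (9929, upstream side, 30.4) and Sult6b2 (9895, 37.75). The farthest peak lay 925235 bases from a TSS in intron 20 of 26 of Erbb4, a receptor tyrosine kinase for neuregulins, with a score of 34.14. The next were in Ccser1 (732190 bases, 37.19) and in Exoc4, an exocyst subunit (389909 bases, 31.26), both upstream of the TSS nearest to them.

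The highest score belonged to a peak in Myo3a, which encodes an unconventional myosin of the inner ear. It was 1325.82, at chr2:22442671-22445859 (mm9), in intron 30 of 33, and at 3189 bases this peak was also the widest. The nearest TSS was not that of Myo3a but of Gad2, which encodes a GABA-synthesising enzyme, 33582 bases away. Every other far intronic peak scored 90.85 or less, so this peak stands apart from the rest of the set.

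Next by score came a peak of 90.85 in intron 10 of 11 of Sufu, a negative regulator of Hedgehog signalling (chr19:46551897-46554978), and one of 88.4 in Lasp1, an actin-binding LIM and SH3 protein (chr11:97681826-97682742). Tcf7l2, a transcription factor of WNT signalling, held a peak of 77.23 in intron 4 of 11 (chr19:55843187-55843976), 27281 bases inside the gene from its nearest TSS. The class IIa histone deacetylase gene Hdac5 held one of 74.92 (chr11:102070464-102071454), and Piezo1, which encodes a mechanosensitive ion channel, one of 72.18 in the first of its 50 introns (chr8:125049838-125050718). Of these 5 genes, 4 lie on chromosomes 11 and 19.

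Fgd2, an exchange factor for the GTPase Cdc42, held a peak of 71.19, only 10334 bases from its TSS. The FERM scaffold gene Frmd4b held one of 69.65 and Sap30bp, whose product binds the corepressor subunit SAP30, one of 66.65. Of the enzymes, the peptidase gene Nln scored 66.37, Hsd11b1, which regenerates active glucocorticoid, 65.96, the staphylococcal nuclease domain gene Snd1 65.75, and Bbox1 of carnitine synthesis 64.14. The GATA cofactor gene Zfpm1 followed with 62.36. The last of the 20 highest were Nckap5 (62.13), the cytoskeletal Septin9 (61.36), Cuedc1 (60.62), Tex14 with 2 peaks (60.53 and 59.89) and Borcs5, a subunit of a lysosome-positioning complex (59.2). Tex14, a component of germ cell bridges, thus held 2 of the 20 highest peaks, both in intron 2 and both annotated on a CpG island.

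Within the host genes the far intronic peaks were spread over many introns. The first intron held 194 of 819 (23.7%, 20.8 to 26.8%), intron 2 held 125 (15.3%) and intron 3 held 82 (10.0%). Introns 6 to 10 held 155 (18.9%) and introns 11 and later 148 (18.1%), while 71 peaks (8.67%) lay in the last intron. Over all intronic peaks 39.5% lay in the first intron, and over those near a TSS 63.3%. The distance limit itself bears on these shares, so they describe the set and are no finding about it. Peaks of the first intron had a median score of 34.48 (33.7 to 35.65) and those of later introns 33.83 (33.44 to 34.18).

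**Figure D2:**
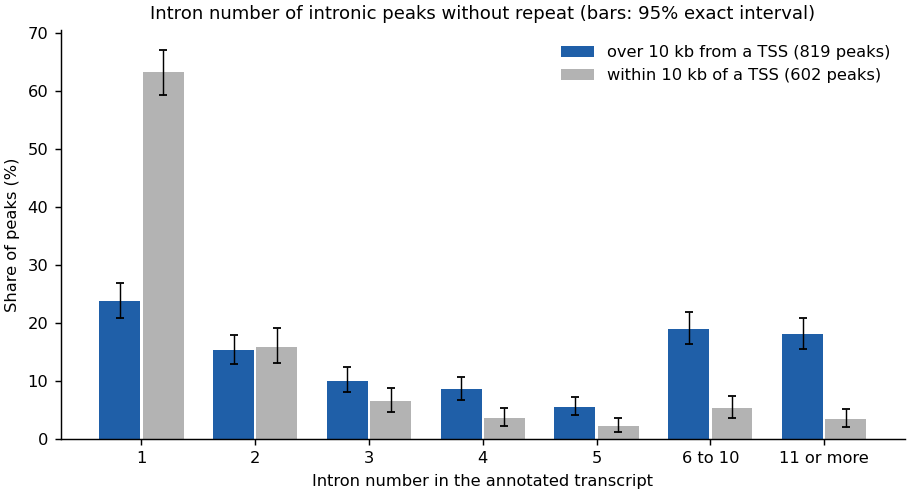
Share of peaks in percent by the number of the intron in the annotated transcript, for far intronic peaks (blue, 819) and near-TSS intronic peaks (grey, 602), both off repeats. Bars start at 0 and the whiskers are exact 95% intervals. The first intron holds 23.7% of the far peaks and 63.3% of the near ones, and 18.1% of the far peaks lie in intron 11 or later.

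The gene around a far intronic peak was often not the gene of the nearest TSS. A host gene could be named for 815 of the 819 peaks. It was the gene of the nearest TSS for 539 (65.8%, 62.4 to 69.1%), against 86.9% of near-TSS intronic peaks, and for 276 peaks the nearest TSS belonged to another gene, 227 such neighbours in all. Peaks with the host nearest and peaks with another gene nearest had the same median score, 33.9. By position, 641 peaks lay downstream of the nearest TSS and 178 (21.7%) upstream of it. Host genes had a median length of 101947 bases (14331 to 2241333) against 24944 for near-TSS intronic peaks, a difference linked to the distance limit, which leaves out short genes.

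Far intronic peaks followed the chromosomes on which all peaks were dense. Chromosomes 6, 8, 11, 16 and 19, which make up 21.3% of the length, held 514 of 819 (62.8%, 59.3 to 66.1%), against 62.2% of all peaks. Chromosome 6 held 138, chromosome 8 126, chromosome 11 107, chromosome 16 72 and chromosome 19 71, while no other chromosome held more than 41. Per megabase this was 0.733 to 1.16 peaks on the 5 chromosomes and at most 0.226 on any other. These 5 were known from earlier results of the data, and whether chromosome copy number in these cells has a part in the counts was not tested.

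**Figure D3:**
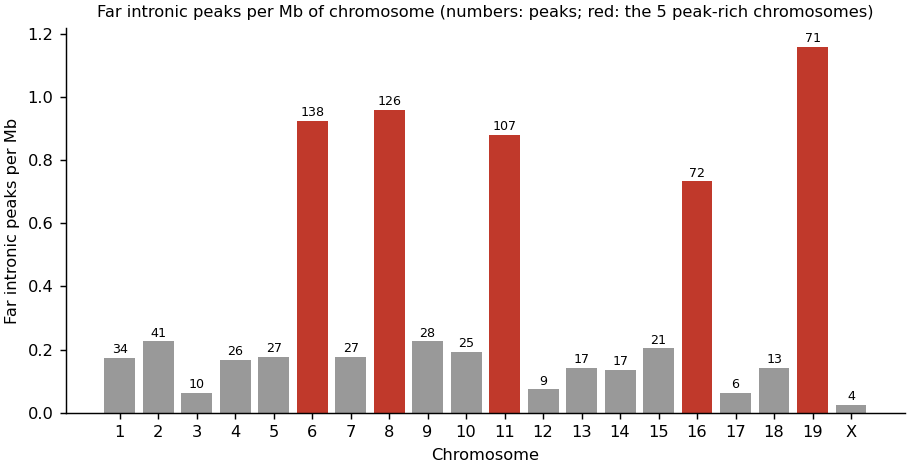
Far intronic peaks per megabase of each chromosome, with the number of peaks above each bar and the axis starting at 0. Red bars are chromosomes 6, 8, 11, 16 and 19 (0.733 to 1.16 per megabase), grey bars the others (at most 0.226). Chromosome Y, with 1 peak of any class and 0 far intronic ones, is not drawn.

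As a share of each chromosome's peaks, far intronic peaks made up 19.3% on the 5 chromosomes pooled (17.1 to 21.6% each) and 18.8% on the others pooled. Among the other autosomes the share ran from 6 of 88 on chromosome 17 (6.82%, exact interval 2.54 to 14.3%) to 17 of 69 on chromosome 14 (24.6%, 15.1 to 36.5%), and chromosome X had 4 of 45 (8.89%). On chromosome 11, 12 far intronic peaks lay up to 70 Mb and 95 beyond (88.8%, 81.2 to 94.1%), as did 90.2% of all peaks of that chromosome. The densest 10 Mb windows were chromosome 6 from 30 to 40 Mb with 28 far intronic peaks of 85 in all, chromosome 11 from 100 to 110 Mb with 23 of 132, and chromosome 8 from 120 to 130 Mb with 22 of 116.

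Peaks on the 5 chromosomes were higher and wider as well as more frequent. Their median score was 34.26 (33.89 to 34.99) against 33.11 (32.74 to 33.89) elsewhere, intervals that meet at 33.89, and their median width 693 bases (663 to 718) against 601 (587 to 614). A score of at least 40 was reached by 25.3% (21.6 to 29.3%) on the 5 chromosomes and 14.8% (11 to 19.2%) on the others. All peaks of other classes moved the same way, with 29.6% and 19.2% at 40 or more and median widths of 686 and 606 bases, so the difference is not particular to far introns.

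The 815 peaks with a named host fell in 640 genes, of which 619 are protein coding, 18 are long noncoding RNA genes, 2 are transcribed pseudogenes and 1 has no entry in the RefSeq table. A single far intronic peak was found in 522 of them, 2 peaks in 82, and 3 or more in 36. The 36 genes hold 129 peaks, with a median score of 35.47 (33.98 to 37.22), and 31 of them lie on the 5 dense chromosomes. Peaks of 1 gene share a region and are not independent of each other.

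**Figure D4:**
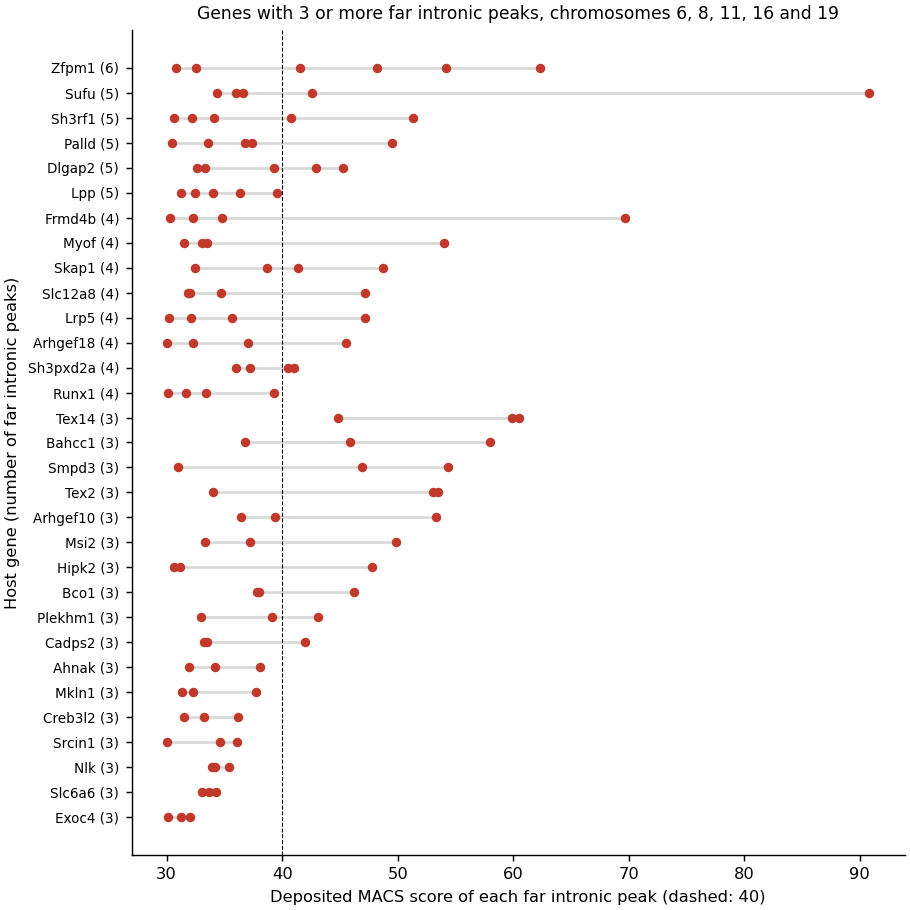
Deposited MACS score of each far intronic peak (horizontal axis) in the 31 host genes with 3 or more of them on chromosomes 6, 8, 11, 16 and 19 (rows, number of peaks in brackets). Each point is 1 peak, grey lines join the peaks of a gene, and the dashed line marks 40. Zfpm1 has 6 peaks, Sufu the highest single value (90.85), and all 3 Tex14 peaks lie above 40.

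Zfpm1, whose product FOG1 partners GATA factors in blood cell development, held the most peaks. Its 6 peaks scored 62.36, 54.19, 48.23, 41.58, 32.53 and 30.79 and lay in introns 1, 3, 4 and 5 within 34849 bases of a gene of 56007. For 3 of them the nearest TSS was that of Trhr2, and 4 of the 6 reached a score of 40.

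Sufu, Sh3rf1, Palld, Dlgap2 and Lpp held 5 peaks each. In Sufu they scored 90.85, 42.58, 36.6, 35.96 and 34.38, and the 3 with the nearest TSS at Trim8 lay in introns 8 and 10. Sh3rf1, a ubiquitin ligase and scaffold of JNK signalling, had 51.37, 40.78, 34.08, 32.18 and 30.67. The actin-associated gene Palld had 49.51, 37.4, 36.82, 33.56 and 30.44 over 172557 bases. Dlgap2, a scaffold gene of the postsynaptic density, had 45.3, 42.89, 39.25, 33.29 and 32.62, all at least 227492 bases from a TSS, and its highest peak was the third widest of the set at 2235 bases. The focal adhesion gene Lpp had 39.52, 36.37, 34.0, 32.41 and 31.28, none reaching 40.

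With 4 peaks each came 8 genes. Lrp5, a co-receptor for WNT ligands, had 47.14, 35.65, 32.08 and 30.19 in introns 5, 11, 13 and 21. Runx1, a transcription factor of blood formation, had 39.31, 33.44, 31.63 and 30.14 in introns 2, 4 and 5, with the gene's own TSS nearest to all 4. Arhgef18, a guanine nucleotide exchange factor gene, had 45.5, 37.01, 32.26 and 30.02, the last at the lower end of the list. Within each of these 3 genes at most 1 peak reached 40.

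Frmd4b had 69.65, 34.76, 32.31 and 30.28. Myof, which encodes the membrane-repair protein myoferlin, had 54.02, 33.49, 33.08 and 31.52. The T cell adaptor gene Skap1 had 48.69, 41.38, 38.67 and 32.47. Slc12a8 had 47.17, 34.68, 32.01 and 31.87. Sh3pxd2a, a podosome scaffold gene, had 41.02, 40.53, 37.22 and 35.98, the narrowest spread of the 8. The other 22 genes held 3 peaks each, with highest scores from 32.06 in Exoc4 to 60.53 in Tex14. Only Tex14 among the 22 had all 3 peaks above 40 (60.53, 59.89 and 44.83).

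Others of the 22 with a peak above 50 included Bahcc1, Smpd3 (a neutral sphingomyelinase), Maml3 (a Notch coactivator), Tex2 and Arhgef10. Bahcc1 scored 57.98, 45.84 and 36.77 within 7214 bases, the tightest group of the 36. Ahnak had 38.11, 34.18 and 31.89, and for 2 of its 3 peaks the nearest TSS was that of Scgb1a1, the club cell secretory protein gene. In Cadps2, a gene of vesicle exocytosis, the nearest TSS was that of another gene for all 3 peaks.

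Far intronic peaks shared their host gene with a promoter peak about as often as intronic peaks in general. Of the far intronic peaks, 46 in 29 genes (5.62%, 4.14 to 7.42%) shared their host with a promoter peak, against 5.7% of all intronic peaks. The promoter peaks of these genes had a median score of 36.25, and the 405 promoter peaks of the list 36.09. Bpgm, the bisphosphoglycerate mutase gene, had the highest promoter score of the 29 (54.88) beside a far intronic peak of only 30.48. Hdac5 and Snd1 were among several genes with the reverse order, with 34.02 and 39.8 at the promoter and 74.92 and up to 65.75 in an intron. Of all 640 host genes 29 had a promoter peak, and of the 36 with 3 or more far intronic peaks 6 had one. These were Plekhm1 (53.59), Runx1 (40.6), Bahcc1 (36.41), Arhgef10 (33.32), Exoc4 (31.41) and Arhgef18 (30.04). Bpgm, Hdac5 and Snd1 were singled out here after their values were seen.

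Few far intronic peaks lay on RNA that was enriched in the pull-down. An overlap of at least 1 base with an ncRNA candidate was found for 23 of 819 (2.81%, 1.79 to 4.18%), against 3.43% of all peaks, 3.82% of near-TSS intronic peaks and 2.0% of far intergenic peaks. Within 10 kb of an ncRNA candidate lay 73 peaks (8.91%), against 17.4% of near-TSS intronic peaks. The 23 peaks met 24 ncRNAs with a median deposited fold (pull-down over input RPKM) of 3.87, where all 6208 listed ncRNAs had 5.06. A fold of at least 10 was listed for 9 of the 24 (37.5%), against 24.4% of all. The 24 are not all separate loci, and several of the 9 are transcripts at Csgalnact1 that overlap each other under 1 peak. For 20 of the peaks the whole peak lay inside a transcript. These ncRNAs were long, with a median span of 15786 bases against 2067.5 for all, and a long span meets a peak more easily.

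**Figure D5:**
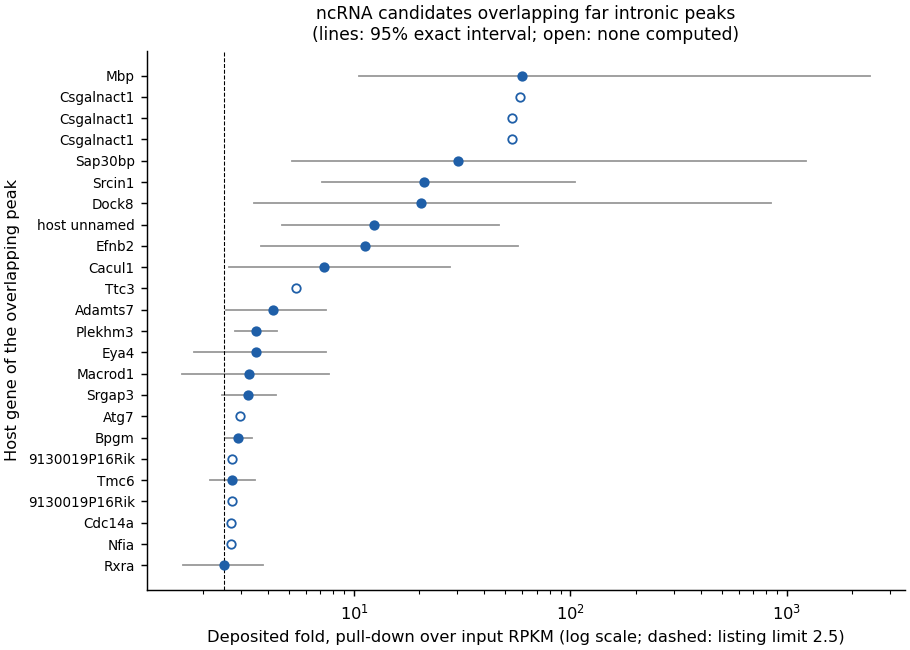
Deposited fold of the 24 ncRNA candidates that overlap far intronic peaks (pull-down over input RPKM, log scale), 1 row per ncRNA named by the host gene of the peak. Lines are exact 95% intervals from recovered read numbers, open circles have none, and the dashed line is the listing limit of 2.5. The folds run from 2.5 at Rxra to 59.4 at Mbp, whose line spans 10.6 to 2421.9.

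Transcripts with many reads had low folds. At Bpgm the ncRNA had 4.546 RPKM in the input and 13.231 in the pull-down (2.91-fold, exact 95% interval 2.53 to 3.37) around a peak of 30.48. At Srgap3, a GTPase-activating gene for Rac, a transcript with 3.25-fold enrichment (2.46 to 4.35) held 2 far intronic peaks, of 47.5 and 34.75. Those at Plekhm3 (3.53-fold, 2.83 to 4.41) and Tmc6 (2.73-fold, 2.16 to 3.48) were similar. At the retinoid receptor gene Rxra the peak was higher (51.67) and the fold the lowest that the list admits (2.5, 1.63 to 3.8).

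Higher folds rested on few input reads. Read numbers given here are single reads, while the intervals count them as pairs, so the counts behind the intervals are smaller. The transcript at Sap30bp, under the highest scoring of the 23 peaks (66.65), had 30.27-fold with 2 input reads (5.19 to 1223.5). At Dock8, an exchange factor for Cdc42, it was 20.36-fold, also with 2 (3.45 to 841). At Srcin1 a transcript with 21-fold (7.08 to 105) and 6 input reads held 2 peaks, of 36.07 and 30.05. At the ephrin gene Efnb2 it was 11.29-fold (3.7 to 57.1) around a peak of 30.26. A peak of 30.22 in Csgalnact1 lay on 3 listed transcripts that overlap each other, with folds of 53.8, 53.8 and 58.33 and inputs of at most 0.005 RPKM, so that rounding alone can lower the highest to 49.9. Bpgm, Efnb2 and Csgalnact1 were chosen here after their values were seen. A peak of 44.9 on chromosome 8 with no named host lay on one with 12.33-fold (4.66 to 46.8). Where an interval is given for these ncRNAs, its lower bound was above 1, but only folds of at least 2.5 from the same reads were listed. Intervals compare 2 libraries, do not separate PCR copies, and cover counting error only.

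Host genes were in the list of pulled-down mRNAs about as often as those of other intronic peaks. Of the far intronic peaks, 63 in 49 genes (7.69%, 5.96 to 9.73%) had a host among the mRNA candidates, against 6.9% of all intronic peaks and 6.48% of near-TSS ones. The 49 genes had a median fold of 4.17, and all 1509 genes of the mRNA list 4.84. Their inputs were very low, with a median of 0.007 RPKM, and 19 of the 49 had at most 0.003, the last digits of the deposited rounding. Deposited lengths can span the introns, as for Slc13a4 with 40174 bases, the length of its gene. A low RPKM over such a length need not mean few reads.

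Rgs3, a regulator of G protein signalling, had the highest fold of the 49, at 32, which rounding of its input of 0.003 RPKM alone can lower to 27.3. It was followed by Slc13a4, a sulfate transporter gene (23, rounding limit 15.0), Sh3bgr (20.33), Thsd1 (19), the semaphorin receptor gene Plxnc1 (16, rounding limit 10.3), Sult2b1 (10.67) and the synapsin gene Syn2 (10). Zfat (9.42), the ceramide synthase gene Cers3 (9.0, rounding limit 5.67), Slc36a3 and Tmprss2 (7.5 each), Rabgap1l (7.11), Btbd11 (7.02), the ubiquitin ligase gene Marchf3 (7.0) and Stard13 (6.85) completed the 15 highest. With inputs of 0.001 to 0.003 RPKM in 10 of the 15, their order is not settled. The rounding limits leave out counting error, and no interval of the fold was computed for any of the 15. Only Stard13 among these 15 had an input above 0.2 RPKM (0.894, with 6.128 in the pull-down). The host peaks of these genes scored 57.65 in Syn2, 49.04 in Slc13a4, 48.45 in Rgs3 and 46.48 in Sh3bgr, and between 30.03 and 37.14 in the others.

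Promoter-associated ncRNA candidates gave a like picture. Hosts of 67 far intronic peaks, 53 genes, had one (8.18%, 6.4 to 10.3%), against 8.38% of all intronic peaks. Their median fold was 5.42, and that of all 1624 genes in that list 5.39. Of the 53 genes 10 were also mRNA candidates and 3 had a promoter peak.

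Protein-coding genes as a whole held a far intronic peak in 2.83% of cases (619 of 21900), and those over 100 kb long in 12.3% (299 of 2429). Signalling genes were read against both shares, since the lists differed in gene length, with medians from 13706 to 129135 bases. WNT signalling had 9 of 70 genes with a far intronic peak (12.9%, exact interval 6.05 to 23.0%), led by Tcf7l2 (77.23), Lrp5 (47.14), the ligand Wnt7a (45.83) and the receptor Ror2 (45.12). TGF-beta and BMP signalling had 7 of 51 (13.7%, 5.7 to 26.3%), with the signal transducer Smad3 at 41.61, the kinase-binding Tab1 at 41.42, the SMAD repressor Ski at 40.23 and the receptor Tgfbr2 at 34.53. Of the 8 peaks in that list only 2 were on the 5 dense chromosomes.

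Receptor tyrosine kinase, RAS and PI3K signalling had 9 of 80 genes (11.2%), among them the lipid kinase Pik3c2b (39.83), the RAS GTPase-activating Rasa3 (39.33) and the TORC1 subunit Rptor (38.4). The cAMP and cGMP list had 7 of 86, with Rapgef1 (45.25), the phosphodiesterase Pde1c (42.52), Creb3l2 (36.15) and Creb5 (35.69). The phosphatase list had 3 of 139, Ppp1r16b, a regulatory subunit (37.86), Dusp16 (33.8) and Ptpn14 (32.09).

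In the nucleus, transcription factors of long genes had 20 of 97 genes with a far intronic peak (20.6%, 13.1 to 30.0%). They were led by Zfpm1 (62.36), Rreb1 (41.77), Stat3 (40.39) and Zbtb20 (40.1), and 7 of their 32 peaks reached 40. Zfpm1 is a cofactor of such factors, and it held 6 of the 32 peaks and 4 of the 7. This list was drawn up from long genes, with a median of 129135 bases. Chromatin regulators had 10 of 194 (5.15%), among them Hdac5, the bromodomain gene Brd7 (53.97), the remodeller subunit Bptf (45.73) and the histone demethylase Kdm4b (44.57). Nuclear receptors and co-regulators had 2 of 51, among them Rxra (51.67).

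For the RNA pathways the counts were small. Among known let-7 targets 1 of 48 genes held far intronic peaks, Igf2bp3, an RNA-binding protein gene, with 47.2 and 31.32 in intron 10 of 14. MicroRNA processing had 3 of 28, Drosha, the nuclear nuclease that cuts primary microRNAs (43.47), Tnrc6c (31.53) and the RNA editing gene Adarb1 (31.19). Polycomb PRC2 and the nuclear exosome had 2 of 30, Aebp2 (33.36) and Zcchc7 (30.96). Lung epithelial markers had 2 of 41, the transcription factor Foxp1 (32.59 and 30.15) and E-cadherin, Cdh1 (31.75 and 30.14), all at the low end of the scores.

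At the cell surface, axon guidance and synapse genes had 13 of 153 (8.5%), with Cntn4 (53.2), Dlgap2 (45.3), Cntnap2 (43.54) and Sema3f (38.35). The extracellular matrix list had 13 of 189 (6.88%), where the basement membrane collagen Col4a2 held 2 peaks (47.6 and 41.53), Col15a1 had 43.51, Adamtsl1 42.55 and Col18a1 35.52. Ion channels had 14 of 277 (5.05%), with Clic6 (51.88), the calcium channel Cacna1c (42.75) and Cngb1 (38.66), and Itprip (48.6) in that list is itself no channel. Adhesion and junction genes had 10 of 219 (4.57%), with Itgb5 (43.22), Cdh13 (39.24), Itga9 (34.1) and Pard3 (33.25). Solute carriers and other transporters had 21 of 523 (4.02%), with Slc13a4 (49.04), Slc12a8 (47.17), Atp6v0a4 (40.68) and Atp8a2 (38.93).

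Inside the cell, membrane traffic and its motors had 27 of 321 genes (8.41%), among them Myo3a, Rab11fip5 (52.27), Asap2 (42.3) and Myo9b (40.52). The ubiquitin list had 16 of 430 (3.72%), with the protease Usp18 (51.65), Ube2o (46.12), Fbxl20 (43.72) and Usp43 (41.52). Of the lists given here, let-7 targets (2.08%) and phosphatases (2.16%) lay below the 2.83% of all protein-coding genes and the others above it. The intervals of let-7 targets (0.0527 to 11.1%) and phosphatases (0.447 to 6.18%) include 2.83%. So do those of several lists above it, such as ion channels (2.79 to 8.33%) and the ubiquitin list (2.14 to 5.97%). Transcription factors of long genes, TGF-beta and BMP signalling and WNT signalling also lay above the 12.3% of genes over 100 kb. The intervals of the last 2 include that share. The transcription factor list was drawn up from long genes with earlier results of these data known, so its interval decides nothing. No list was tested, because genes of 1 library are not replicates.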

How the data were processed

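Deposited tables of the ChIRP-seq and of the pull-down were used, the latter with a column for the pull-down's input library. For both assays, the submitters' processing notes name mm9 and, without their roles, HOMER, SAMtools, Bowtie2 and FastQC. They add MACS and bedtools for ChIRP-seq, and bedtools 2.15, Picard 1.119 and Trimmomatic for the pull-down. The authors deposited a score per peak. Input and pull-down values are RPKM, per the file headers, rounded to 3 decimals in the deposited tables. The fold is the authors' deposited ratio of the RPKM values, at least 2.5 in every row. Peaks were joined to their annotation by identifier, and 0 were unmatched. Host genes came from the transcript accession of the intron, matched to RefSeq GRCm38.p6 for 803 peaks and through the deposited accession and name pairs for 12. Gene lengths are from that table.

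RPKM times length was compared with whole reads only for low values with enough decimals: 2183 input and 103 pull-down values of the ncRNA table and 202 and 12 of the mRNA table. Read totals were chosen so that as many of these values as possible fell within 0.15 reads of whole numbers, so that closeness is no check. They were 9.66 (input) and 15.0 M reads (pull-down) for ncRNAs, and 23.9 and 41.9 M for mRNAs. The same libraries thus gave different totals in the ncRNA and mRNA tables, and the reason was not tested. Intervals of the folds rest on these totals. Where both read numbers were recovered, an exact binomial interval of the fold was computed, with ncRNA reads counted as pairs. Shares carry exact Clopper-Pearson 95% intervals, and medians intervals from order statistics (Python 3.11.15, pandas 2.3.3, SciPy 1.17.1). The overlap search and the recovery of read totals were tested on simulated data, and the intervals were not. With 1 library per group no test between groups was possible. The members, the 20 gene lists and the naming rule were chosen with earlier results of these data known. The rule named the 20 highest scores, hosts of 3 or more peaks, up to 15 ncRNA overlaps by score, up to 15 mRNA hosts by fold, up to 4 hosts per list, and the extremes of distance and width. Some genes and 1 list that it covers are not reported here. There were 0 other per-sample columns. The other 9 libraries were not analysed here.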

Additional observations from a re-analysis of the deposited data

How the results depend on the processing

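Of 19 alternative settings, 12 gave values within the interval of the reported one and 7 did not. Keeping only peaks with a score of at least 40 raised the share on chromosomes 6, 8, 11, 16 and 19 from 62.8% to 74.3%. With the same limit the median width went from 643 to 823 bases and the share in the first intron from 23.7% to 27.4%. The exact interval of that last share (48 of 175) was 21.0 to 34.7%, which includes 23.7%. Peaks of all other classes also reached 40 more often on these chromosomes (29.6%, against 19.2% elsewhere), so the first of these shifts is not particular to far introns. A distance limit of 20000 bases lowered the share in the first intron to 18.1%. Counting ncRNA candidates within 10 kb raised the share of peaks at an ncRNA from 2.81% to 8.91%, and keeping only candidates with an input other than exactly 1 RPKM and a fold of at least 5 lowered it to 1.1%. An mRNA fold of at least 5 lowered the share of peaks with such a host from 7.69% to 2.44%. The last 3 follow from how the alternatives are built, as wider windows or fewer candidates. The distance limit itself bears on the share in the first intron, and for the other shifts the cause was not tested. No paired analysis was possible because each group has 1 library.

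The single ChIRP-seq library gives no replicate error, its depth is unknown, and the score limit near 30 cuts the list where most peaks lie. Without a control capture, binding to the probes and association with Mirlet7d cannot be told apart. Host genes were long by the choice of distance, and the gene lists differ in gene length.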

Other observations

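A microRNA gene was the nearest TSS for 25 of the 819 far intronic peaks (3.05%, exact interval 1.98 to 4.47%), at 22 such genes, against 3.13% of all peaks. The highest was a peak of 44.57 in Kdm4b, 27845 bases from Mir6977. A peak of 42.33 in the kidney and eye development gene Pax2 lay 10422 bases upstream of Mir6405, and one of 40.93 in Ank1, which encodes an erythrocyte ankyrin, lay 13952 bases upstream of Mir486. In Col27a1 a peak of 31.07 lay 12997 bases downstream of Mir455, a microRNA of cartilage. Both Sh3pxd2a peaks nearest to Mir6995 (40.53 and 35.98) lay upstream of it, and Ttc28 and Itpr1 each held 2 peaks nearest to 1 microRNA gene, Mir701 and Mir7661. These pairs were named after their values were seen.

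Another peak lay within 10 kb of 147 far intronic peaks (17.9%), against 27.1% of near-TSS intronic peaks and 17.2% of far intergenic ones. Of the 819, 293 (35.8%) shared the host gene with another far intronic peak, 91 (11.1%) with an intronic peak near a TSS and 123 (15.0%) with an intronic peak on a repeat.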
